A study of Mus musculus with 31 samples.

Results

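The question here was how much of the chromatin response of regulatory T cells (Tregs) to 1 injection of IL-2, seen at 0.75 h, was left at 16 h. The measure was a difference of effects on the log2 scale, (IL2 minus PBS at 16 h) minus (IL2 minus PBS at 0.75 h), in which a negative value means that the effect of IL2 was lower at the later time. It rested on 12 of the 31 ATAC-seq libraries of the series, 3 in each of 4 groups. ATAC-seq counts the sites at which a transposase can cut, so a peak of reads marks open DNA. The Tregs were sorted from spleens of C57BL/6 mice that carry the RFP-FoxP3 reporter, in which cells that express the Treg factor Foxp3 fluoresce red. The groups were PBS (100 µL) and mouse IL-2 (labelled mIL-2, 5 µg, here IL2), each at 0.75 h and at 16 h. A fusion protein that joins IL-2 to CD25, a chain of its receptor (labelled mIL-2/CD25, 20 µg, here FP), was given in other groups. Its 3 libraries at 16 h are set beside those of IL2 as another regimen, since the doses differ. Separate mice are not stated for the libraries of a group, so p-values reflect only how far these libraries spread.

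IL-2 binds a receptor whose associated JAK kinases phosphorylate STAT5. STAT5 then enters the nucleus and binds DNA as a dimer at palindromes of the form TTCNNNGAA. Tregs carry much CD25 and depend on IL-2 made by other T cells. STAT5 also turns on inhibitors of its own pathway, such as Cish.

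Totals of the 12 libraries ran from 17.1 to 38.6 M counts (M, mega), of which 1 peak alone held 19.4% to 32.0%. All 3 IL2 libraries at 16 h (28.3 to 38.6 M) were above all 3 PBS libraries of that time (17.1 to 23.6 M). Sample ids give a different date for each time, so time and date cannot be told apart, and each IL2 group was compared with PBS of the same time. The Foxp3 promoter peak held 13.7 to 26.7 counts per M (CPM, scaled as described under processing) in the 12 libraries, against 1.64 to 5.31 for a Cd8a peak and 0.33 to 1.65 for a peak of the myeloid gene Lyz2. Of the defining markers of other cells, Ms4a1 (B cells), Ncr1 (NK cells), Csf1r and Adgre1 (myeloid cells) and Hba-a1 (erythroid cells) had no tested peak. The 8 CD8 T cell and the 8 conventional CD4 T cell genes of the marker lists all had peaks. Summed by list, these held 137 to 216 and 101 to 142 CPM in the 12 libraries. Other markers had peaks too, for 6 of 10 B cell, 6 of 8 NK cell, 7 of 10 myeloid and 5 of 10 erythroid genes. Among them, a peak at the globin gene Hbb-bt held 3.05, 3.63 and 3.93 CPM with PBS and 16.8, 11.6 and 19.5 with IL2 at 0.75 h, and 4.30, 6.01 and 4.11 with PBS and 1.93, 4.52 and 3.25 with IL2 at 16 h. Hbb-bt rose at 0.75 h (2.17 ± 0.41, adjusted p = 0.0043), while its difference between times, -2.74 ± 0.57, was not past the threshold (adjusted p = 0.059). Its levels moved with the opened peaks, and the part of such cells in the results was not tested.

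The effect of IL2 fell between 0.75 h and 16 h at 43 of 104520 tested peaks, which is 0.0411% (edgeR quasi-likelihood test, Benjamini-Hochberg adjusted p under 0.05). It rose at 0 peaks. At an unadjusted p under 0.05, 5500 peaks (5.26%) differed in either direction. DESeq2 called 257 falls and 17 rises, and limma voom 29 falls and 0 rises. The edgeR test fitted to the 12 libraries alone called 31 falls, of which 25 were among the 43. The 43 peaks lay in 43 separate regions. All 43 had every IL2 library above every PBS library at 0.75 h (6.05% of all tested peaks did). None did at 16 h (4.42% of all tested peaks did). Libraries of both times chose the 43, so these counts describe the choice and are no test. A bulk library cannot tell fewer nuclei with an open site from less opening in each nucleus.

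Sequences around the STAT5 palindrome are shown for the peaks whose values are described next, since most of the 43 peaks held such a match. Each is the plus strand of GRCm38 from RefSeq, with 30 bp on either side and the matches in capitals.
Fhit, chr14:10467455-10467523: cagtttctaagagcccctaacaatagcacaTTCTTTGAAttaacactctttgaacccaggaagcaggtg
Cyth1, chr11:118222859-118222968: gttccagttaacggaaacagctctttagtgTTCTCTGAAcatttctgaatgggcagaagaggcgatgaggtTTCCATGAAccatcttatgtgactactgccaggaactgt
Sept9, chr11:117321950-117322040: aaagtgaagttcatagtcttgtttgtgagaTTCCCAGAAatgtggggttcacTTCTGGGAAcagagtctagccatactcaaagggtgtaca
Pvt1, chr15:62229681-62229749: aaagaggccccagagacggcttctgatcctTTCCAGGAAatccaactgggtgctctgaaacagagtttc
Bcl2, chr1:106607005-106607244: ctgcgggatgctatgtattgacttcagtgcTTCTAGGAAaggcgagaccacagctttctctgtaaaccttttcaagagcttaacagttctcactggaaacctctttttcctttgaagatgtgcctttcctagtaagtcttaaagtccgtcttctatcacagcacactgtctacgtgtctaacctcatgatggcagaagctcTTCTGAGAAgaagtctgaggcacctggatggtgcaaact

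Searched in the central 300 bp of each peak, the palindrome TTCNNNGAA (the same on both strands) was present in 34 of the 43 peaks (79.1%) and in 10.6% of all tested peaks. Over the whole peak the shares were 90.7% and 13.4%, and 30.2% of the 43 held at least 2 matches in the central window against 0.839% of all. The 43 peaks were wider than all tested peaks (median 708 against 367 bp), poorer in G and C (median 43.3% against 48.3%) and less often within 1 kb of an annotated transcription start (9.30% against 30.6%). Other motifs searched on both strands were near their share of all peaks or below it. The AP-1 motif TGANTCA was in 11.6% against 10.1%, the RUNX motif TGTGGT in 20.9% against 23.9%, the ETS motif CCGGAAG in 0 peaks against 5.17%, and the NF-kB motif (GGGA, any 4 bases, CC) in 9.30% against 16.6%. A match describes the letters in the window and is not a measured binding site.

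The signalling gene Ptpn1 encodes a phosphatase that removes phosphate from tyrosines of JAK kinases. A peak assigned to it, in intergenic DNA at chr2:167909933-167910693 and 21364 bp from the nearest annotated start, held 8.37, 9.07 and 5.93 CPM in the IL2 libraries at 0.75 h against 1.07, 0.958 and 0.348 with PBS. At 16 h it held 0.463, 2.11 and 1.51 CPM with IL2 and 2.77, 1.40 and 2.03 with PBS. The 0.75 h groups did not overlap and the 16 h groups did. The log2 effect of IL2 went from 3.28 ± 0.47 (SE) to -0.61 ± 0.44, a difference of -3.89 ± 0.63 (adjusted p = 0.0067). PBS itself was higher at 16 h (2.07 ± 0.688, mean ± SD) than at 0.75 h (0.793 ± 0.389), which is a part of that difference. This Ptpn1 peak had no STAT5 palindrome. Another Ptpn1 peak that rose at 0.75 h had differences of -1.32 to -0.86 across the alternative fits, and none passed.

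Nfkb1 encodes a precursor and subunit of the transcription factor NF-kB. The peak at chr3:135604427-135605216, inside the gene and 568 bp from the start of short Nfkb1 transcripts in GENCODE, held 23.0, 23.7 and 21.3 CPM with IL2 and 5.40, 5.95 and 5.12 with PBS at 0.75 h. At 16 h it held 3.59, 5.05 and 4.36 with IL2 and 4.84, 8.74 and 4.67 with PBS, so groups that were apart at 0.75 h overlapped at 16 h. The difference of effects was -2.52 ± 0.44 (adjusted p = 0.016). Traf6, whose product is a ubiquitin ligase that relays receptor signals to NF-kB, had a peak with a difference of -2.26 ± 0.38 (adjusted p = 0.010). Traf6 was named after its values were seen. Neither peak held the STAT5 palindrome.

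Cyth1 encodes cytohesin 1, an exchange factor for ARF GTPases, and Cytip encodes a protein that binds cytohesins. The Cyth1 peak, in an intron at chr11:118222570-118223332, held 25.9, 17.9 and 26.1 CPM with IL2 against 3.17, 2.92 and 3.68 with PBS at 0.75 h, and 1.78, 1.20 and 2.97 against 5.88, 2.31 and 2.08 at 16 h. The difference of effects was -3.63 ± 0.57 (adjusted p = 0.0040). The Cytip peak held 29.1, 29.5 and 36.8 CPM with IL2 against 6.06, 6.35 and 4.08 with PBS at 0.75 h, and 4.83, 5.56 and 5.21 against 5.26, 2.59 and 5.58 at 16 h. Its difference was -2.33 ± 0.46 (adjusted p = 0.042). At both peaks the IL2 libraries stood clear of PBS at the early time and lay among or below them at the later one. Cytip passed in 1 of the 12 fits that each left out 1 library, and Cyth1 in all 12.

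The lowest p of the difference was at an intron of Fhit, which encodes a hydrolase of dinucleoside polyphosphates (chr14:10467137-10467578). Its IL2 libraries held 35.4, 26.6 and 35.3 CPM at 0.75 h and 3.51, 4.35 and 3.63 at 16 h, and its PBS libraries 6.59, 4.94 and 4.92 and then 5.26, 4.55 and 5.33. The early effect was 2.56 ± 0.28, the late effect -0.40 ± 0.27 and the difference -2.96 ± 0.38 (adjusted p = 5.2e-04). At 16 h all IL2 libraries were below all PBS libraries at Fhit, although the 16 h effect did not pass its own test (adjusted p of 1). Maml3, which encodes a coactivator of Notch and was named after its values were seen, had a difference of -2.23 ± 0.34 (adjusted p = 0.0032).

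The peak of the noncoding RNA gene Pvt1, the neighbour of Myc, held 10.6, 9.65 and 7.98 CPM with IL2 and 1.57, 1.82 and 1.19 with PBS at 0.75 h. At 16 h it held 2.36, 1.54 and 2.85 with IL2 and 4.63, 3.64 and 1.93 with PBS. The difference was -3.21 ± 0.53 (adjusted p = 0.0067). As at Ptpn1, part of it was a PBS level that was higher at 16 h (3.40 ± 1.37) than at 0.75 h (1.52 ± 0.313).

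Among peaks with a mean log2 CPM of at least 1, other large falls were at Sipa1l2 (-3.66 ± 0.72, adjusted p = 0.038), Plcl1, Setbp1 (-3.62 ± 0.67, adjusted p = 0.023), Gm13982, Gm17767 (-3.11 ± 0.61, adjusted p = 0.040), Gm47819 (-2.97 ± 0.55, adjusted p = 0.026), Smyd3 and Gm49653. Smyd3, which encodes a methyltransferase, had a difference of -2.67 ± 0.53 (adjusted p = 0.041), and Gm49653 one of -2.61 ± 0.50 (adjusted p = 0.033). PBS was higher at 16 h at all of these peaks, which is a part of each fall. Its log2 change was 1.16 at Sipa1l2, 0.81 at Gm47819 and 0.70 at Setbp1, and 0.22 to 0.48 at the others. Plcl1 and Gm13982 differed from the other 41 in that their rise at 0.75 h was not past the threshold (1.88 ± 0.49, adjusted p = 0.078, and 1.58 ± 0.44, adjusted p = 0.13). At Plcl1 the 16 h libraries held 0.502, 0.770 and 0.707 CPM with IL2 and 2.61, 3.36 and 0.913 with PBS, so its difference of -3.65 ± 0.70 (adjusted p = 0.033) came from both times. Gm13982 had a late effect of -1.76 ± 0.46 and a difference of -3.34 ± 0.64 (adjusted p = 0.031).

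Sept9, which encodes a septin of the cytoskeleton, had the largest difference among the peaks described one by one, -5.79 ± 0.77 (adjusted p = 5.3e-04), but at few reads. Its libraries held 12.8, 5.65 and 5.60 CPM with IL2 against 0.494, 0.605 and 0.199 with PBS at 0.75 h, and 0.425, 1.20 and 0.566 against 3.77, 0.699 and 2.08 at 16 h. The groups were apart at 0.75 h and overlapped at 16 h, and the PBS mean was 2.18 at 16 h against 0.433 at 0.75 h. The peaks of low counts among the 43 shared this shift of PBS. Over the 11 of the 43 peaks with a mean log2 CPM under 1, the median change of PBS from 0.75 h to 16 h was 2.02 and the median difference of effects -4.64, against 0.11 and -2.39 over the other 32. The difference that chose these peaks subtracts the change of PBS, so a PBS rise in them describes the choice and is no test. Over all tested peaks the median change of PBS was 0.005. PBS changed past the threshold at 0 of all tested peaks (7219, or 6.91%, at an unadjusted p under 0.05).

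More abundant peaks are shown by Gm2116, Dthd1 and Gprin3. The Gm2116 peak held 91.4, 85.2 and 82.8 CPM with IL2 against 28.2, 21.2 and 17.7 with PBS at 0.75 h, and 13.9, 16.7 and 17.0 against 15.1, 18.6 and 13.7 at 16 h. The 16 h means were 15.8 in both groups, and the difference was -1.94 ± 0.28 (adjusted p = 0.0025). The Dthd1 peak held 44.4, 42.1 and 43.0 CPM with IL2 against 16.0, 16.5 and 15.9 at 0.75 h, and 10.3, 9.37 and 12.0 against 13.2, 10.7 and 14.7 at 16 h, a difference of -1.71 ± 0.27 (adjusted p = 0.0040). Gprin3 had a difference of -1.57 ± 0.29 (adjusted p = 0.020) and passed in 5 of the 12 fits that each left out 1 library.

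**Figure D1:**
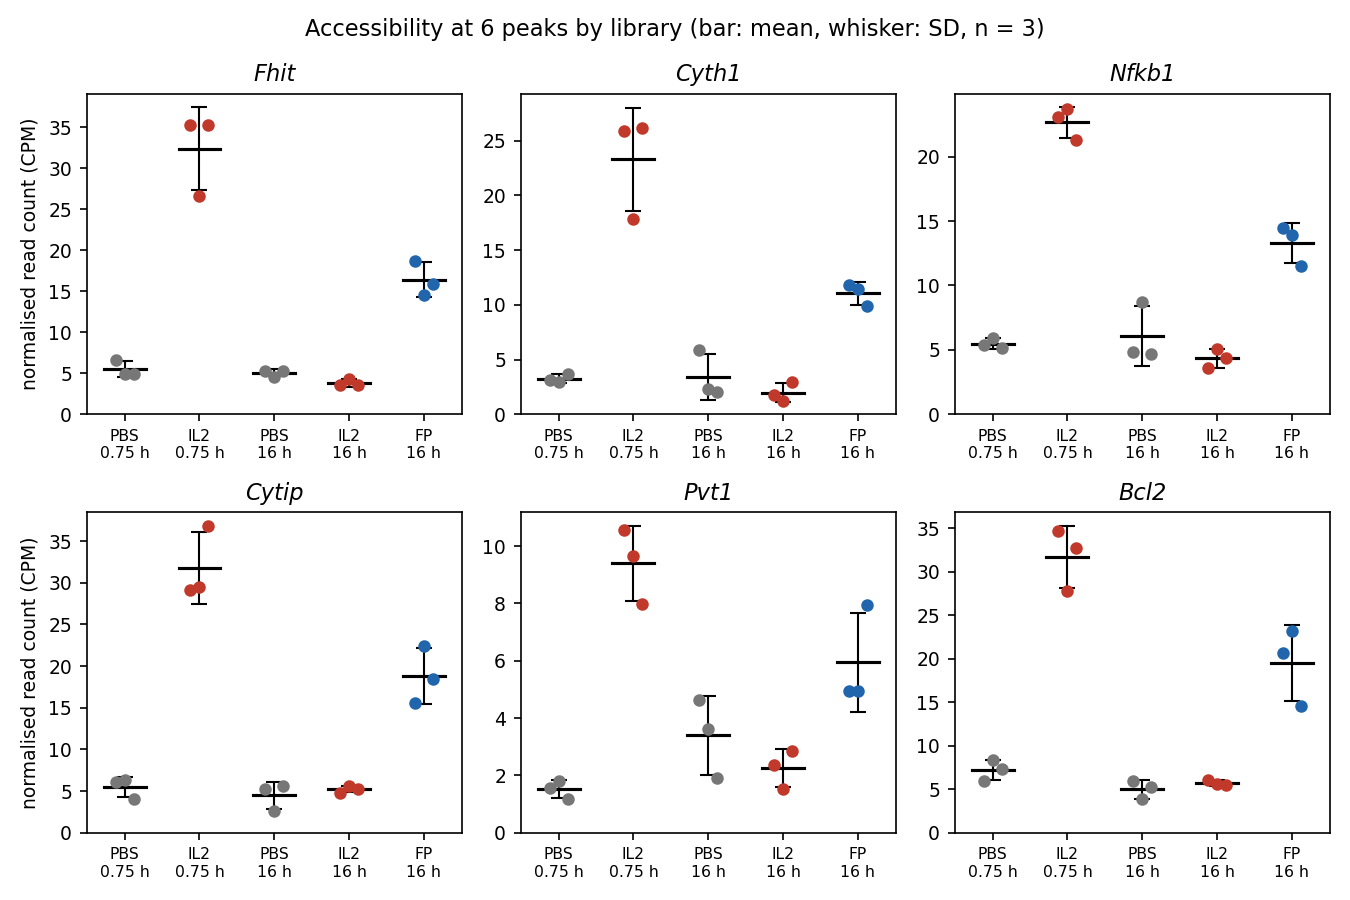
CPM (vertical axis, linear from 0) in each library of the PBS and IL2 groups at 0.75 h and 16 h and of the FP group at 16 h, for peaks of Fhit, Cyth1, Nfkb1, Cytip, Pvt1 and Bcl2; points are libraries, bars the mean and whiskers the SD (n = 3). The IL2 points stand high at 0.75 h and at the PBS level or below at 16 h, where in these 6 peaks each FP point lies above the PBS and IL2 points of that time.

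Taking the 43 as a group, the median log2 effect of IL2 was 2.48 at 0.75 h and -0.41 at 16 h, and the median difference was -2.67. Over all tested peaks the median was -0.03 at 0.75 h and 0.02 for the difference. These medians describe how the peaks were chosen and are no test of them. Peaks with few reads have wide intervals, and the 43 had a higher median CPM than all tested peaks (6.46 against 2.19). The 95% interval of the 16 h effect was below 1, that is below a 2-fold gain, at 42 of the 43 (55.1% of all tested peaks). It was wholly below 0 at 8 (2120 of all 104520), in libraries that took part in the choice: Sept9, Kcnj15, Grap2, Plcl1, Gm13982, 1700019F05Rik, Traf6 and Maml3, named after their values were seen. At 8 peaks, a partly different set, all IL2 libraries were below all PBS libraries at 16 h, as were 4.65% of all tested peaks. Just inside the threshold lay Cnksr3 (-1.92, adjusted p = 0.042) and Cytip, and just outside it 1700030L20Rik (-1.95, adjusted p = 0.052).

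**Figure D2:**
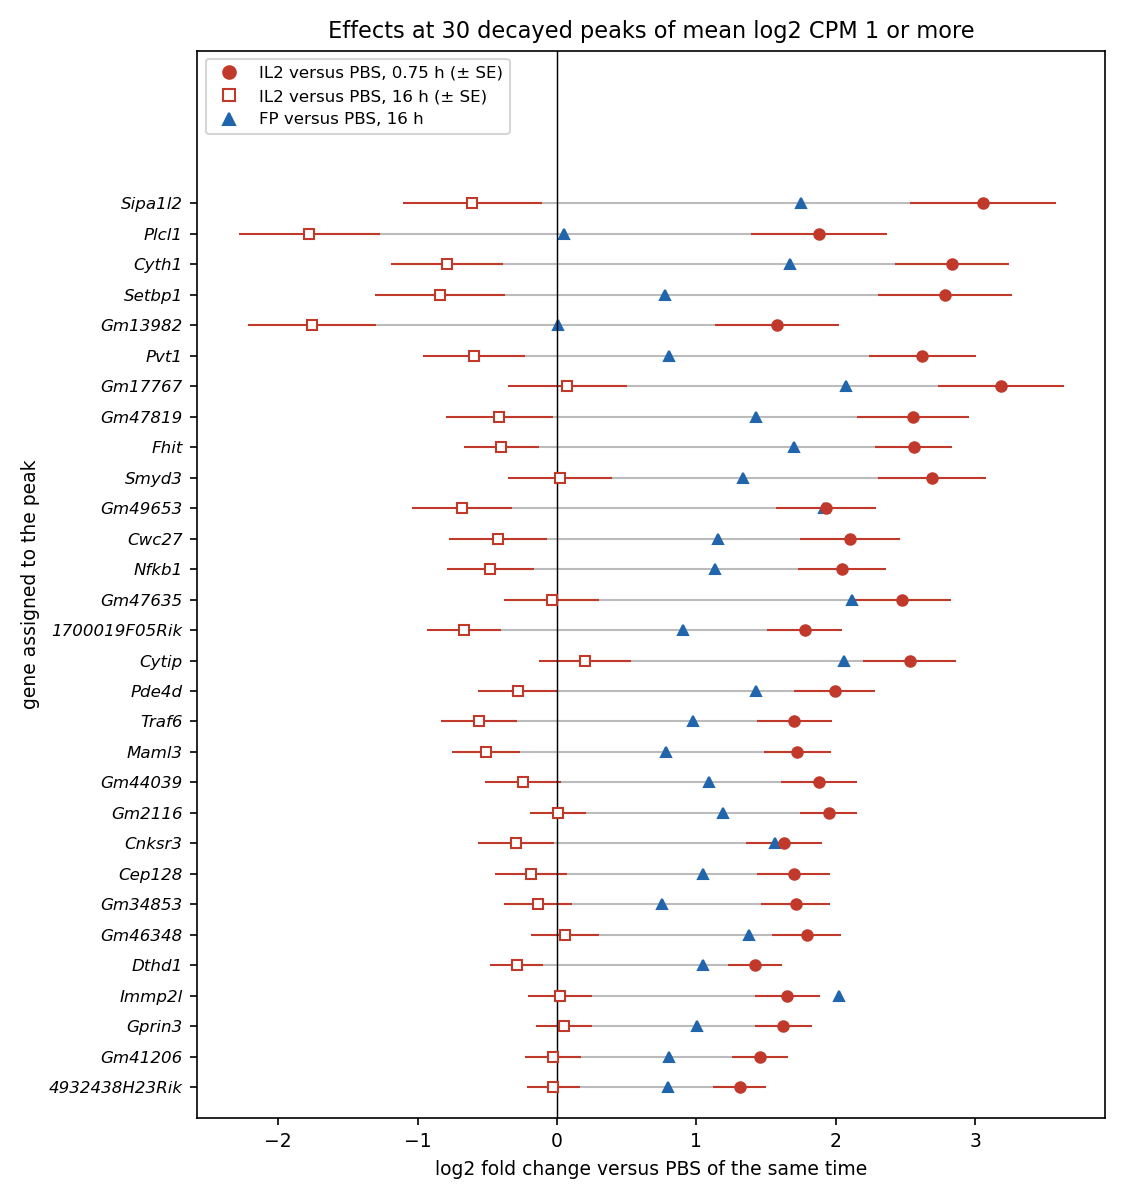
Log2 fold change against PBS of the same time (horizontal axis) at 30 of the 32 peaks with a mean log2 CPM of at least 1 whose IL2 effect fell, by gene (vertical axis); filled circles are IL2 at 0.75 h, open squares IL2 at 16 h (both ± SE) and triangles FP at 16 h. Circles lie right of 0 and squares near or left of it, and every triangle lies right of 0.

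The count depended on single libraries. It was 12 without IL2 replicate 1 and 17 without IL2 replicate 3 at 0.75 h, 27 without PBS replicate 1 and 11 without PBS replicate 3 at 0.75 h, 14, 28 and 20 without IL2 libraries c1, c2 and c3 at 16 h, and 22 without PBS library c1 at 16 h. Without PBS 1 and FP 2 of 168 h, which only inform the spread, it was 97. The difference stayed negative at all 43 peaks in each of these fits and in every other alternative tried. Such fits share most or all of the libraries that chose the 43 for a strong fall, so the kept sign is no separate test. Passing in all 12 fits were Fhit, Sept9, Gm2116, Kcnj15, Maml3, 1700019F05Rik, Dthd1, Cyth1 and Ptpn1, while Nfkb1 passed in 9 and Pvt1 in 11. Of the other large falls, Setbp1 passed in 6, Gm13982 and Gm47819 in 4, Gm49653 in 3 and Gm17767 in 2. Sipa1l2, Plcl1 and Smyd3 passed in 1. Only 18 of the 43 peaks passed in at least 6 of the 12 fits.

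The wider response was read through the 465 peaks (379 merged regions) that had risen with IL2 at 0.75 h, which is 0.445% of those tested (16 peaks, 0.0153%, had fallen). Their 16 h effect comes from other libraries than those that chose them. Its median was 0.04, with quartiles of -0.19 and 0.28, while at 0.75 h the median was 1.77. The number of rises at 0.75 h was 244 without IL2 1, 292 without IL2 3, 263 without PBS 1 and 179 without PBS 3, and the 16 h median stayed between -0.05 and 0.11 in these and the other alternatives run for it. Above 0 at 16 h were 256 (55.1%) of the 465 and 49.8% of all tested peaks. Every 16 h IL2 library was above every 16 h PBS library at 38 (8.17%), or 23 of the 379 regions (6.07%), against 4.42% of all tested peaks; many of the 38 were overlapping peaks at Aven and Man1a. IL2 was called at 0 of 104520 peaks at 16 h in either direction (3791 at an unadjusted p under 0.05, 3.63%; DESeq2 called 1 fall and limma voom 0). At 351 of the 465 (75.5%) the 95% interval of the 16 h effect lay below a 2-fold gain, against 55.1% of all tested peaks. Peaks with few reads have wide intervals, and the 465 had a median of 6.89 CPM against 2.19 over all. At a mean log2 CPM of at least 1 the share was 79.0% of the risen peaks. It was 70.4% and 72.9% of peaks of that level over 1 kb from a start with 0 and 1 STAT5 matches. The interval lay wholly above 0 at 10 of the 465 and wholly below 0 at 12. Of all 104520 it did so at 1671 and 2120, so few peaks in either set were past 0. Of the 465, 41 were among the 43 peaks at which the fall itself passed, so for most of them the decay was not shown peak by peak.

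The 10 peaks with a 16 h interval above 0 were at Nup210, Rap1gds1, Dennd5a, 1700025G04Rik, Ppm1l, Gm5544, Foxp1, Gm38108, Gm19309 and Mllt3, named after their values were seen. None passed the adjusted test at 16 h, and a count of 10 is near the share over all tested peaks. At Nup210, which encodes a nuclear pore protein, IL2 libraries held 6.91, 6.66 and 4.95 CPM at 16 h and PBS libraries 2.81, 2.1 and 3.80. The groups did not overlap there, and the 16 h effect was 1.08 (95% interval 0.47 to 1.69) after 1.27 at 0.75 h.

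**Figure D3:**
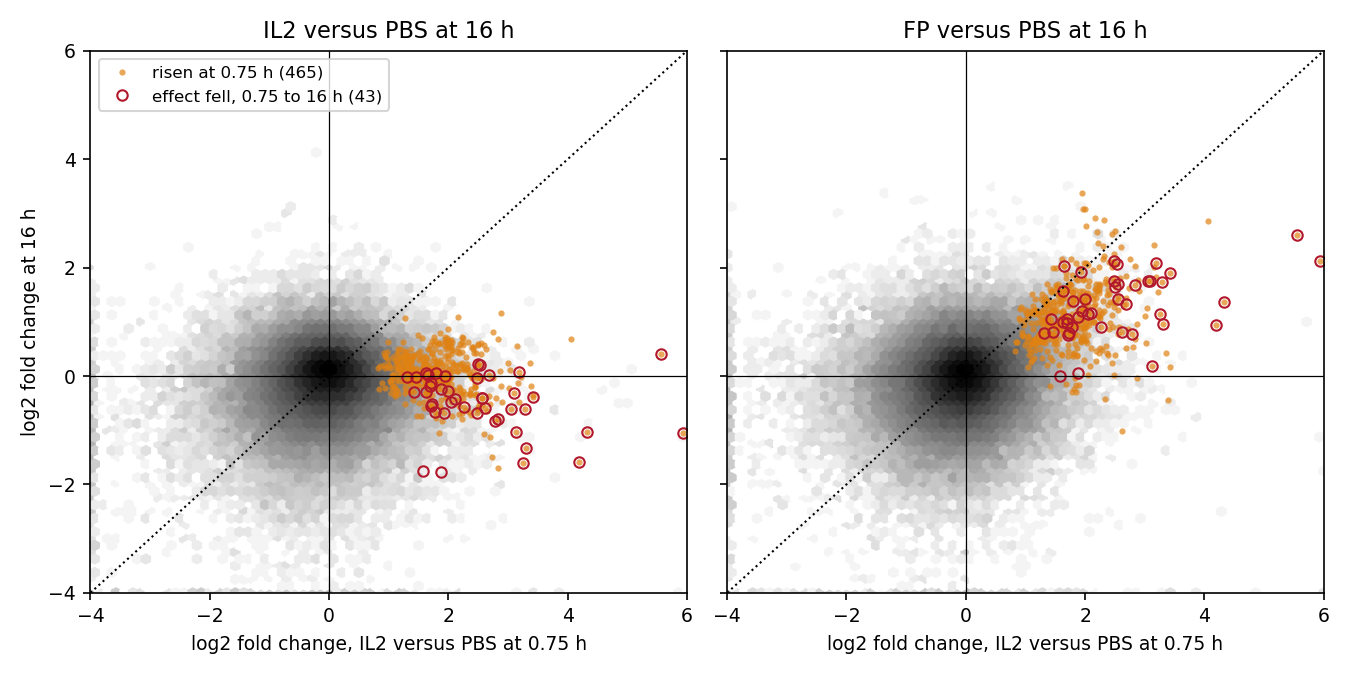
Log2 fold change of IL2 against PBS at 0.75 h (horizontal axis) and at 16 h (vertical axis) for IL2 on the left and FP on the right; grey is the density of all tested peaks on a log scale, orange points the 465 peaks risen at 0.75 h and red rings the 43 whose effect fell, and the dotted line marks equal effects. Orange points lie around 0 at 16 h with IL2 (median 0.04) and mostly above 0 with FP (median 1.07).

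With FP the 465 peaks had a higher level than with PBS or IL2 at 16 h. The median FP effect was 1.07, 453 of the 465 were above 0, and 112 were called as risen (0.149% of all tested peaks were). Set directly against IL2 at 16 h, FP was higher by a median of 1.04, with 105 of the 465 called (0.147% of all tested peaks were called as higher with FP, and 0 as lower). At Fhit the FP libraries at 16 h held 18.7, 14.6 and 15.9 CPM, all above the PBS and IL2 libraries of that time and below the IL2 libraries of 0.75 h, and FP exceeded IL2 by 2.1 ± 0.27 (adjusted p = 1.9e-04). At Cytip they held 15.6, 22.4 and 18.5 CPM and exceeded IL2 by 1.85 ± 0.33 (adjusted p = 0.0050). At Ptpn1 they held 6.30, 8.89 and 5.73 CPM and exceeded IL2 by 2.34 ± 0.44 (adjusted p = 0.0088). At Pvt1 they held 4.96, 4.93 and 7.93 CPM, and the excess of 1.40 was not past the threshold (adjusted p = 0.15). For the 43 peaks the 16 h IL2 libraries took part in the choice, so the 28 at which FP exceeded IL2 describe them only. The dose and the molecule differ together between FP and IL2, and their parts cannot be told apart here.

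The mean log2 CPM over the 465 peaks gives the same picture by library. It was 3.94, 3.74 and 3.83 with IL2 and 2.03, 2.09 and 1.79 with PBS at 0.75 h, the times and groups that chose the peaks. At 16 h it was 2.02, 2.14 and 2.06 with IL2, within the range of PBS at that time but for 1 library (2.12, 1.92 and 2.08), and 3.20, 3.28 and 3.08 with FP.

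**Figure D4:**
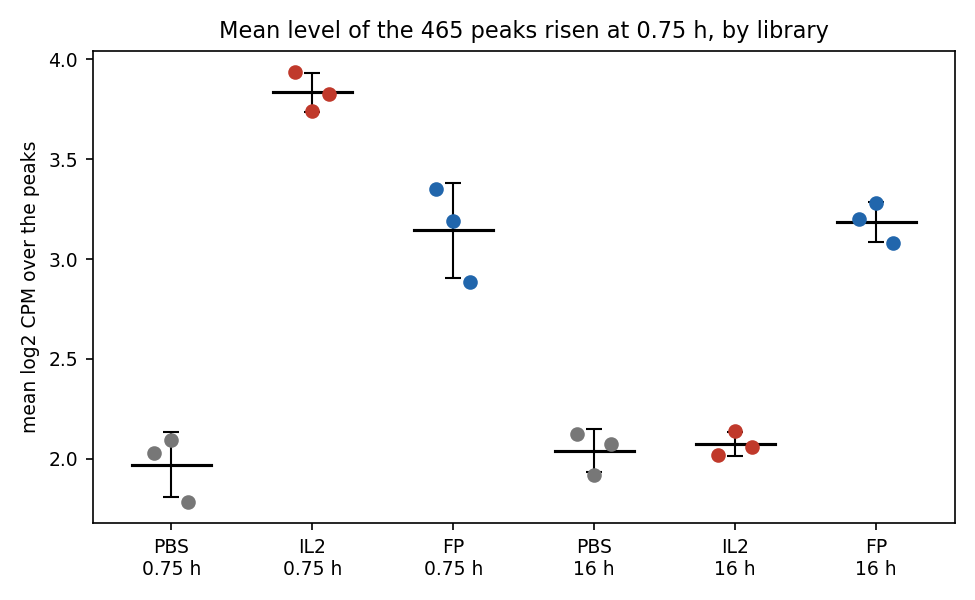
Mean log2 CPM over the 465 peaks risen with IL2 at 0.75 h (vertical axis) for each library of PBS, IL2 and FP at 0.75 h and 16 h; points are libraries, bars the mean and whiskers the SD (n = 3). IL2 at 16 h (2.07 ± 0.06) sits with PBS (2.04 ± 0.11), and FP at 16 h (3.19 ± 0.10) sits above both.

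The median effect was larger in peaks with more STAT5 palindromes at 0.75 h and was near 0 for any number at 16 h. Over all tested peaks with 0, 1, 2 and at least 3 matches (93442, 10201, 812 and 65 peaks), the median effect at 0.75 h was -0.05, 0.15, 0.64 and 1.16. At 16 h the medians of the peaks with 1, 2 and at least 3 matches were -0.03, -0.07 and -0.12, and for FP at 16 h they were 0.10, 0.45 and 0.41. Among the 465, 66.7% held a match in the central window and 84.3% in the whole peak. Among peaks over 1 kb from a start and with a mean log2 CPM of at least 1, the medians for 0, 1, 2 and at least 3 matches were -0.02, 0.27, 0.80 and 0.68 at 0.75 h (28 peaks in the last class) and 0.06, 0.02, -0.01 and -0.10 at 16 h.

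**Figure D5:**
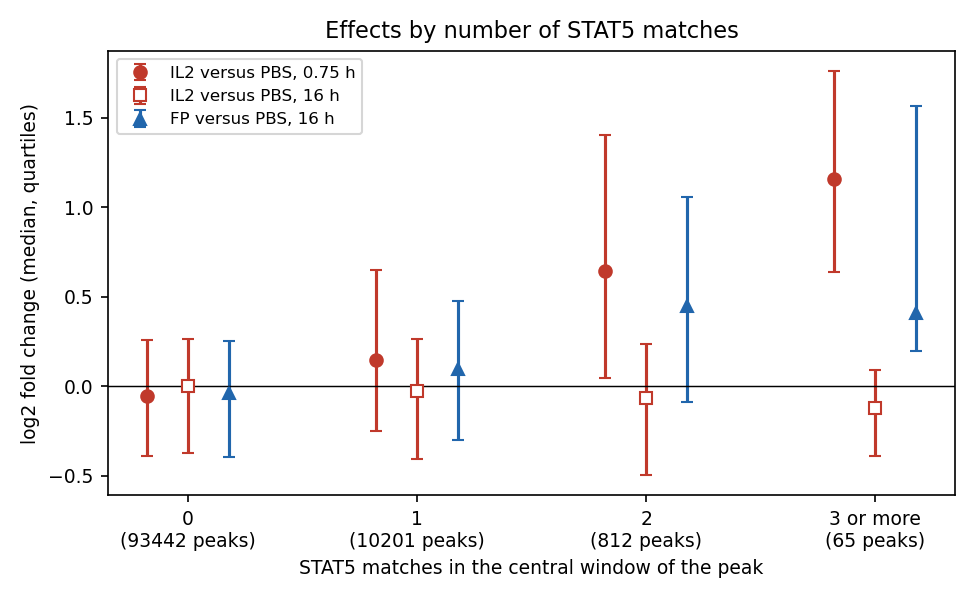
Median log2 fold change with quartiles (vertical axis) over all tested peaks by the number of STAT5 palindromes in the central 300 bp (horizontal axis); filled circles are IL2 at 0.75 h, open squares IL2 at 16 h and triangles FP at 16 h. The circles climb from -0.05 to 1.16 while the squares stay near 0.

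Genes of the IL-2 response were followed from a list of 25. Bcl2 encodes an inhibitor of apoptosis, and its peak of lowest p at 0.75 h is the last of the sequences shown. It held 34.7, 27.8 and 32.7 CPM with IL2 against 5.98, 8.32 and 7.36 with PBS at 0.75 h, and 6.10, 5.62 and 5.47 against 5.96, 3.85 and 5.22 at 16 h. The groups were apart at 0.75 h and overlapped at 16 h, yet the difference of -1.95 ± 0.42 was not past the threshold (adjusted p = 0.076). FP libraries held 20.7, 23.2 and 14.6 CPM at 16 h, and FP exceeded IL2 by 1.77 ± 0.30 (adjusted p = 0.0032). Other Bcl2 peaks that rose at 0.75 h had differences of -0.92 to -0.39 and -2.18 to -1.39 across the alternative fits, and none passed. Cdk6, whose product drives passage through G1 of the cell cycle, had a difference of -1.65 ± 0.38 (adjusted p = 0.12).

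At Cish, which encodes a STAT5-induced inhibitor of cytokine receptors, the difference was -1.63 ± 0.53 (adjusted p = 0.50). The homing and quiescence genes with an early rise gave differences of -1.42 ± 0.34 at Bach2 (adjusted p = 0.15) and -2.27 at Ccr7 (adjusted p = 0.46). The Treg genes Nrp1 and Nt5e gave -3.20 ± 0.83 (adjusted p = 0.25) and -3.37 ± 0.89 (adjusted p = 0.27), and Foxp3 and Il2ra, which encodes CD25, gave -0.73 ± 0.44 and -1.15 ± 0.70 (each an adjusted p of 1). None of these passed. Of the 25 genes, the difference was above 0 at Icos (1.82 ± 0.74, adjusted p = 0.79), Klrg1 (1.77 ± 0.77, adjusted p = 0.86) and Tcf7 (0.32 ± 0.45, adjusted p of 1), which also did not pass. At the strongest promoter peak of the 25 genes, 0 differences passed.

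In 18 gene lists, the fall passed at 1 of 324 peaks of the IL-2 and STAT5 response and 1 of 215 of cytokine signalling inhibitors, both the Ptpn1 peak, and at 1 of 229 of NF-kB and TNF receptor genes, the Nfkb1 peak, where 0.0411% of all tested peaks passed. The other lists held 0, and 0 peaks of any list rose. At 0.75 h the lists had held 9 risen peaks of the IL-2 and STAT5 response (at Bcl2, Cdk6, Cish, Lta and Ptpn1), 13 of 376 of resting and homing genes (among them peaks at Bach2, Ccr7, Foxp1, Itga4 and Lef1), 4 of NF-kB genes, 3 of 234 of Treg identity and 0 of effector Treg, AP-1 and interferon genes, beside 0.445% of all tested peaks. Most of the 13 were at Foxp1 and most of the 4 at Nfkbiz, and the list counts are of peaks, not of merged regions. Lists outside the pathway held risen peaks too, with 1 of 81 at constitutive genes (Actb), 1 of 378 at T cell receptor signalling genes (Prkcq) and 1 of 31 at erythroid markers (Hbb-bt). At 16 h every list held 0. Medians of the difference over the lists that are not cell markers ran from -0.06 (Treg identity) to 0.23 (cell cycle), with 0.03 for the IL-2 and STAT5 response, 0.09 for NF-kB, 0.14 for T cell receptor signalling and 0.18 for constitutive genes, beside 0.02 over all tested peaks. Marker lists ran from -0.14 (B cell) to 0.68 (myeloid), with 0.26 for CD8 T cells. The myeloid list held 27 peaks, and its summed level was 63.6 to 105 CPM in PBS and 71.0 to 156 in IL2 libraries at 16 h, whose part in the results was not tested.

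No peak passed as a rise of the IL2 effect, with a lowest adjusted p of 0.075. The 5 rises of lowest p among peaks with a mean log2 CPM of at least 1 were at Btg2, which encodes an antiproliferative protein (2.35 ± 0.52, adjusted p = 0.093), Ldlrad4, Ctnna1, Smco4 and Gm49236 (1.21 to 1.97). In all 5, IL2 was below PBS at 0.75 h.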

How the data were processed

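Per the submitters' processing notes, the authors aligned reads to GRCm38 (mm10) using BWA and called peaks using MACS2 2.1.2. Per the series design text they kept peaks that 2 pseudo-replicates reproduced. How reads were counted, duplicates filtered and the common peak set made is not given in the sources used here. Raw whole-number counts of reads over 104979 peaks were deposited. The first per-sample column, recorded under other units, also holds deposited counts. Commas in the gene names of 9561 peaks shift fields, so lines were split starting at their right, and 0 per-sample columns stayed unmapped. Groups come from the titles and, for the 16 h columns, from the column names. Only the titles and column names give the later times, since the treatment protocol names 0.75 h throughout. The 16 h columns match groups only (libraries c1 to c3). The labels mention 2 technical replicates per sample, which the table does not separate.

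Counts were fitted in R 4.3.3 with edgeR 4.0.16 (TMM factors; filterByExpr with minimum count 10 and minimum total 15) in 1 model of all 31 libraries with a coefficient per group. The other groups add only to the estimate of the spread. The quasi-likelihood F test was two-sided and adjusted by Benjamini-Hochberg over 104520 peaks at 0.05. SE is the size of a log2 fold change divided by the square root of F, intervals are 95%, and log2 CPM used a prior count of 2. The biological coefficient of variation was 43.9%. Between libraries of 1 group the chi-square per degree of freedom was 9.5 to 33.2, and pure counting error would give 1. The scripts were tested on simulated data. Genes are those of the deposited annotation, which need not be the genes a peak acts on. Distances use GENCODE M21 and sequences RefSeq GRCm38.p6.

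The contrast, the named peaks and the 18 gene lists (280 genes, 263 with a tested peak) were chosen with earlier results of these data known. Named peaks were the 12 largest falls with a mean log2 CPM of at least 1 (1 per gene), the 5 rises of lowest p, the 10 peaks of lowest p at 0.75 h, 25 follow-up genes and list members past a threshold; others are said to be named after their values were seen. A few peaks and genes that the rule covers are counted but not reported here by name. Alternatives were other scaling, filters, tests (DESeq2 1.42.0, limma 3.58.1), sets of libraries, a replicate block, library total as a covariate and leaving out each library. FP minus IL2, PBS and IL2 between times were added after the data were seen. Python 3.11.15, numpy 2.4.6, pandas 2.3.3, pysam 0.24.0 and matplotlib 3.10.9 made the tables and figures.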

Additional observations from a re-analysis of the deposited data

Results flagged for a closer look

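The effect of IL2 against PBS differed between 0.75 h and 16 h by the test of the difference itself at 43 peaks, all with a lower effect at 16 h. Among the peaks named, the log2 differences, 16 h minus 0.75 h, were -5.79 at Sept9, -3.89 at Ptpn1, -3.66 at Sipa1l2, -3.65 at Plcl1, -3.63 at Cyth1, -3.62 at Setbp1, -3.34 at Gm13982, -3.21 at Pvt1, -3.11 at Gm17767, -2.97 at Gm47819, -2.96 at Fhit, -2.67 at Smyd3, -2.61 at Gm49653, -2.52 at Nfkb1, -2.33 at Cytip, -1.94 at Gm2116, -1.71 at Dthd1 and -1.57 at Gprin3. Groups held 3 libraries, too few for a formal check of single libraries that stand apart. By chi-square per degree of freedom, IL2 library c3 at 16 h lay farthest from its group (31.6 and 33.2, against 16.7 between c1 and c2). Without it, 5786 peaks had an unadjusted edgeR p under 0.05 at 16 h against 3791 with it, and 0 passed the adjusted test.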

How the results depend on the processing

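The 43 peaks became 25 with library totals only, 29 with limma voom and 31 with the 12 libraries of the 4 groups alone. The number was 68 with a mean CPM of at least 1 and 79 with the 18 libraries of 0.75 h and 16 h. It was 97 without PBS 1 and FP 2 of 168 h, 193 with log2 library total as a covariate and 274 with DESeq2. The numbers of rises were 3 of the 97, 9 of the 193 and 17 of the 274. Leaving out 1 library gave 11 to 52, with 3 rises without IL2 2 at 0.75 h and 1 without PBS c3 at 16 h. At 0.75 h, 481 called peaks became 865 with the covariate, 1182 with DESeq2 and 184 to 568 with 1 library left out: 251 without IL2 1, 317 without IL2 3, 270 without PBS 1 and 184 without PBS 3. At 16 h, 0 calls became 1 with DESeq2. The median 16 h effect of the peaks risen at 0.75 h (0.04) stayed between -0.05 and 0.11. Peaks with FP risen at 72 h, planned as another choice, gave no value, since 0 passed there with edgeR (2946 at an unadjusted p under 0.05). Among single named peaks, 131 values in alternative fits lost the threshold, 47 gained it and 0 changed direction. Those fits share most or all of the libraries, so the kept direction is no separate test.

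With the replicate number as a block at 0.75 h, 57 peaks differed between times, 576 were called at 0.75 h and 0 at 16 h. The numbers gave correlations of 0.089, 0.179 and 0.062 between same-numbered PBS and IL2 libraries, not all over 0.1, so they were not taken as pairs, although each library correlated best with its own number. The 16 h columns carry no shared numbers. All 3 IL2 libraries at 16 h had more counts than the PBS libraries of that time. Depth and this group therefore move together, and peaks with few reads have wide intervals.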

Other observations

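At 0.75 h, 16 peaks had a lower level with IL2 (0.0153% of those tested). Their median effect was -1.76 at 0.75 h and 0.14 at 16 h, read in other libraries. Hif1a, which encodes an oxygen-sensing transcription factor, had effects of -2.60 and then -0.22. Ptprc, which encodes the phosphatase CD45, had -2.44 and 0.48, Prkdc, which encodes a DNA repair kinase, -1.66 and 0.31, and Zc3h12c, which encodes a ribonuclease of the Regnase family, -1.59 and 0.06. PBS itself changed between times, which is a part of these shifts. Its log2 change was above 0 at 1 of the 16 peaks (median -0.77), which were chosen with PBS of 0.75 h. Mean PBS went from 3.32 to 1.41 CPM at Hif1a, 3.74 to 1.40 at Ptprc and 8.53 to 4.98 at Prkdc. At Zc3h12c it was 10.0 and then 9.45. These genes were chosen after their values were seen, and 0 of the 16 differences passed the adjusted test.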
